A study of Mus musculus with 6 samples.

Results

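The genes described here encode the motors that move along microtubules: kinesin heavy chains (Kif), kinesin light chains (Klc), the chains of cytoplasmic dynein (Dync) and the dynein light chains (Dynl). They were taken as all probe sets of the array table whose single gene symbol begins with Kif and a digit or c, with Klc and a digit, with Dync1 or Dync2, or with Dynl. This gave 132 of 45101 probe sets, standing for 57 genes. Of these, 39 genes, through 76 probe sets, reached a mean intensity of 50 in at least 1 group of arrays and were tested among 12070 genes. The other 18 stayed under 50 in both groups.

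Expression was measured on 6 arrays from mouse cortex, asking how RNA on the ribosomes of S100a10-expressing cortical cells differs from that of the whole cortex. Both groups came from the BAC transgenic line ES691, with S100a10 as driver, backcrossed for 3 to 5 generations from FVB onto C57BL/6, untreated; ages and numbers of animals are not given in the sources used here. The 3 TRAP samples (translating ribosome affinity purification) are RNA of tagged ribosomes pulled down from cortex lysate, and the 3 unbound samples are whole cortex RNA that titles call input and the series text calls flow-through. The labels call the 3 samples of a group biological replicates, and separate animals are not named, so a p-value speaks for the scatter of these samples alone, part of which may be technical. The series text states that the transgene also labels some non-neuronal cells. Since these are bulk samples, fewer cells of a type and less RNA per cell cannot be told apart.

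Most kinesins walk towards the plus ends of microtubules, which in axons means away from the cell body, and cytoplasmic dynein-1 walks the other way. A neuron depends on both to supply distant synapses and to return spent organelles and signals. Heavy chains carry the motor domain, while light and intermediate chains mainly link the motor to cargo. Dynein-2 works inside cilia, and another set of kinesins serves mitosis, which mature neurons do not undergo.

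Motor genes were mostly lower in TRAP RNA. Of the 39 tested, 33 were called (69% of all genes were): 28 lower and 5 higher at a limma adjusted p under 0.05 (Benjamini-Hochberg over all 12070 genes). Over all genes tested 45.7% were lower and 23.3% higher, against 71.8% and 12.8% of the motors. The shares of 45.7% lower and 23.3% higher over all genes are the ones to set beside the counts of each motor group below, where they are not repeated. The other 6 motors were not called. Of the 28, Kif27, Kif9, Kif26b and Dync2h1 reached the level limit of 50 only in unbound RNA, the group in which they are higher. Their unbound means were 50.5, 52.7, 50.0 and 134. With 50 required in both groups, 23 of 35 motors (65.7%) were lower and 5 (14.3%) higher, against 44.7% and 21.2% of 10979 genes. The median log2 difference of TRAP minus unbound was -0.46 for the motors and -0.21 for all genes. The lower genes included heavy chains of the axonal and dendritic transport kinesins and the large chains of dynein-1. The 5 higher genes were Dynlrb2, Kif26a, Dynlrb1, Dync2li1 and Dynll1. Changes were moderate in size: 5 of the called genes were at least 2-fold lower (13.3% of all genes were) and 2 at least 2-fold higher (7.29% of all genes). The TRAP and unbound values did not overlap in 36 of the 39, as in 75.5% of all genes.

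The balance of directions moved with the scaling of the arrays. As deposited, the median intensity over all probe sets was 31.4 to 31.8 on the TRAP arrays and 42.4 to 43.1 on the unbound arrays. Centring each array on the median of the tested genes, an alternative chosen after the data were seen, shifted all genes by 0.21 and gave 20 motors lower and 9 higher, or 51.3% and 23.1%, where all genes had 33.2% and 34.0%. Quantile normalisation gave 23 lower and 9 higher (59.0% and 23.1%), with 33.0% and 34.1% of all genes. Centring on the median of all probe sets shifted genes by 0.43 and gave 13 lower and 14 higher (33.3% and 35.9%), with 22.3% and 47.3% of all genes. Under all 4 scalings 13 motors were called lower, namely Kif5a, Kif1a, Kif1b, Kif17, Kif21a, Kif21b, Kif26b, Kif27, Kifc3, Dync1h1, Dync1i2, Dync1li2 and Dync2h1. Of these, Kif26b, Kif27 and Dync2h1 were under the level limit in TRAP RNA, and Kif26b and Kif27 lost their calls when values under 50 were raised to 50. The 5 higher genes were called higher under all 4 scalings too. Each alternative scaling moves the median of all genes upward, so this could hardly have gone otherwise and is no check of those calls. Dync1i1, Dync1li1, Dynlt3 and Klc1, called lower as deposited, were called higher after centring on all probe sets.

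**Figure D1:**
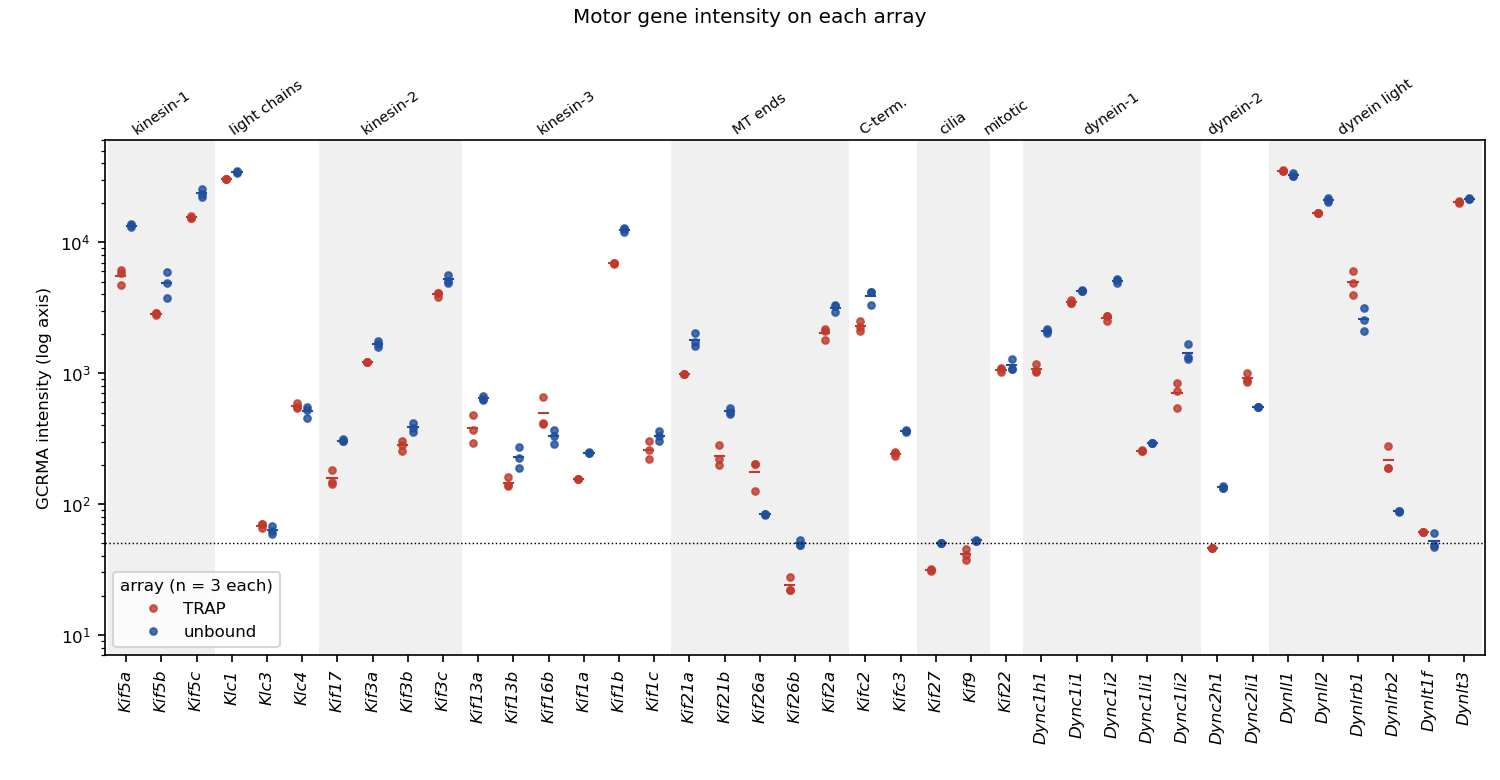
Intensity of the 39 tested motor genes on each array (log axis), 3 TRAP and 3 unbound arrays a gene, with short lines at the group means and a dotted line at the level limit of 50; MT ends stands for kinesins that act on microtubule ends and growth. TRAP values lie under unbound values for most kinesin and dynein-1 heavy chains and above them for Dynlrb1, Dynlrb2, Dync2li1 and Kif26a.

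The dynein subunits moved apart, and 4 of them are shown with the start of their genes. The 4 were picked with their values known, and the first window listed for each gene is shown. The windows run from 250 bases before to 50 bases after the start, from RefSeq (GRCm38.p6), read 5′ to 3′ on the strand of the gene. Capitals mark GTTGCC, the half-site of the X-box read by RFX factors of ciliated cells, and GGGCGG, the GC box of Sp1, on either strand; overlapping matches are joined. Dynlrb1 (chr2:155236283-155236582, plus strand) and Dynlrb2 (chr8:116504765-116505064, plus strand) encode roadblock light chains and were higher. Dync1h1 (chr12:110601145-110601444, plus strand) and Dync2h1 (chr9:7177009-7177308, minus strand) encode the heavy chains and were lower.
Dynlrb1: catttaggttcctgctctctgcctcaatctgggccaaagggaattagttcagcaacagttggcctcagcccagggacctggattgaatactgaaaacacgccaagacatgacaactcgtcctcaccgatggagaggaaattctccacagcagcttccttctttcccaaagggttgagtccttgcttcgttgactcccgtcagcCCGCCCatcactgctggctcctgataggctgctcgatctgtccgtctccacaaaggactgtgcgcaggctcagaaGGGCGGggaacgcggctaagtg
Dynlrb2: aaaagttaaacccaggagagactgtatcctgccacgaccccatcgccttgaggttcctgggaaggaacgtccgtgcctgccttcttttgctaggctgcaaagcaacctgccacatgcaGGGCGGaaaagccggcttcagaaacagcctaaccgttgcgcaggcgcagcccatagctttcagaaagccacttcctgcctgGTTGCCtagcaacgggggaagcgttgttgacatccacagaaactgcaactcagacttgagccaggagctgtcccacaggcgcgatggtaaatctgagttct
Dync1h1: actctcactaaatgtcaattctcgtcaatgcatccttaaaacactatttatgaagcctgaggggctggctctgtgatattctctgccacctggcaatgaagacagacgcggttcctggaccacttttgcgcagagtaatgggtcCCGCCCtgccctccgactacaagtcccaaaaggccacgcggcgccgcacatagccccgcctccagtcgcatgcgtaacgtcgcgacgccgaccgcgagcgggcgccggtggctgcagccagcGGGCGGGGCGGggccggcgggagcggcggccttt
Dync2h1: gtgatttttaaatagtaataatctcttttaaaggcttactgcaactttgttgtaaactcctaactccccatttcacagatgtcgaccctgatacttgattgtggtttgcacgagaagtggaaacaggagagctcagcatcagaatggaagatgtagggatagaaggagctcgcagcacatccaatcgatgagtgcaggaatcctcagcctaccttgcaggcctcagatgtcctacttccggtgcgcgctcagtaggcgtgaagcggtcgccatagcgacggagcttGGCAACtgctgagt
GTTGCC occurs once each in the windows of Dynlrb2 and Dync2h1, genes that differed in opposite directions. Over the RefSeq table it occurs in 12.5% of 32851 windows, and in 15 of the 36 windows of the 30 tested motor genes that matched by symbol. GGGCGG occurs in 35.7% of all windows and in 27 of those 36. Among windows of called motors GTTGCC stood in 2 of 5 for higher genes and in 11 of 25 for lower genes, and GGGCGG in 5 of 5 and 17 of 25. These are matches of letters, and the arrays did not measure the activity of promoters.

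Conventional kinesin, kinesin-1, carries mitochondria and vesicles along axons, and its 3 heavy chains were lower. Kif5a, a neuronal heavy chain, measured 4737, 6134 and 5778 on the TRAP arrays and 12964, 13616 and 13693 on the unbound arrays. Each TRAP value was under each unbound value, and Kif5a had the largest fall of any kinesin in the set, 2.43-fold (log2 -1.28 (SE 0.11), limma adjusted p = 3.0e-04; folds here are 2 to the power of the log2 difference). Kif5c, also neuronal, read 15404, 15808 and 15272 on the TRAP arrays and 22259.8, 25487 and 23355 on the unbound arrays, a 1.53-fold difference (adjusted p = 5.0e-04). Kif5b, the form found in most cell types, read 2866, 2767 and 2866 on the TRAP arrays and 5899.8, 3766 and 4892 on the unbound arrays, with unbound replicate 2 closest to the TRAP arrays, and was 1.68-fold lower (adjusted p = 0.012). Of the 5 Kif5b probe sets above the level limit 4 were called lower, with log2 differences from -1.13 to -0.75, and the other was not called (-0.61). Of the 3 Kif5c probe sets 2 were called lower and the dimmest was not called (-0.28), while both of Kif5a were called lower. After centring on all probe sets Kif5b and Kif5c kept their sign but were not called (log2 -0.32 and -0.18).

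The ratio of Kif5a to Kif5c within an array, which no centring can change, was 1.59-fold lower in TRAP RNA with no overlap of the groups. An exact permutation test gave p = 0.1 (two-sided), the smallest that 3 against 3 arrays allow, and 0.16 after adjustment over the 13 pairs compared. The ratios Kif5a to Kif5b and Kif5b to Kif5c overlapped between the groups (exact p = 0.2 and 0.7). Both rest on the Kif5b probe set that stands for the gene. With the median over the probe sets of each gene the log2 differences were -1.24 for Kif5a, -1.09 for Kif5b and -0.67 for Kif5c.

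Kinesin light chains bind the heavy chain tails and select cargo, and they differed little. Klc1, the form abundant in brain, read 30639, 30639 and 30639 on the TRAP arrays and 33762, 35314 and 34145 on the unbound arrays, a 1.12-fold lower level (adjusted p = 0.005). The 3 TRAP values are identical, which makes their spread no measure of error. Another Klc1 probe set was called higher, at 431 ± 73.4 against 311 ± 19.4 (mean ± SD, n = 3; log2 0.46, adjusted p = 0.037 in the fit over probe sets), and the remaining one was not called (log2 -0.12), so Klc1 has no settled direction. It was called higher after centring on all probe sets (log2 0.27, adjusted p = 0.0029). Klc3 and Klc4 were not called, at log2 0.12 (SE 0.066) and 0.15 (SE 0.083), and their groups overlapped. Klc3 was called higher without unbound replicate 2 (log2 0.18, adjusted p = 0.026). Both were called higher after either centring and after quantile normalisation, with log2 values up to 0.55 and 0.58. Within an array the ratio of Klc1 to Kif5a, a pair chosen after the values were seen, was 2.17-fold higher in TRAP RNA, without overlap (exact p = 0.1). A pair chosen in that way gives no independent test.

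Kinesin-2 motors build cilia and carry cargo in axons and dendrites, and all 4 tested were lower. Kif17, a dendritic motor that carries vesicles with NMDA receptors, read 143, 149 and 184 on the TRAP arrays and 312, 301 and 301 on the unbound arrays. The groups lay far apart, with a 1.94-fold lower level in TRAP RNA (log2 -0.96 (SE 0.10), adjusted p = 8.4e-04), and its other 2 probe sets above the level limit gave nearly the same differences (-0.93 and -0.92). Kif3a and Kif3b form one heterodimer. Kif3a read 1220.0, 1217 and 1217 on the TRAP arrays and 1579, 1775 and 1671 on the unbound arrays (log2 -0.46 (SE 0.050), adjusted p = 8.2e-04). Kif3b read 284, 255 and 305 on the TRAP arrays and 380.3, 358 and 419 on the unbound arrays (log2 -0.45 (SE 0.092), adjusted p = 0.0082). The partners shifted nearly equally, and their ratio within arrays differed by -0.0041 on the log2 scale (exact p = 0.9). The 4 probe sets of each gene were called lower, from -1.19 to -0.39 for Kif3a and from -0.67 to -0.24 for Kif3b.

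Kif3c, a neuronal relative that pairs with Kif3a, gave opposite calls. Its brighter probe set read 4075, 4075 and 3839 on the TRAP arrays and 4889.6, 5638 and 5095 on the unbound arrays (log2 -0.38 (SE 0.065), adjusted p = 0.0043), while the other measured 2311 ± 35.2 against 1979 ± 109.8 and was called higher (log2 0.23, adjusted p = 0.011). Kif3a, Kif3b and Kif3c were not called after centring on all probe sets, where Kif3c turned to 0.053.

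Kinesin-3 motors carry synaptic vesicle precursors, mitochondria and endosomes, and 4 of 6 were lower. Kif1b read 7003, 6845 and 7003 on the TRAP arrays and 11992, 12725 and 12762 on the unbound arrays. This was 1.80-fold lower in TRAP RNA (log2 -0.85 (SE 0.037), adjusted p = 3.3e-05), and 4 of its 5 probe sets above the limit were called lower. Kif1a, the chief carrier of synaptic vesicle precursors, read 155, 155 and 155 on the TRAP arrays and 244, 249 and 244 on the unbound arrays on a probe set with identical TRAP values (log2 -0.67 (SE 0.025), adjusted p = 2.1e-05). Its second probe set was lower as well, at 99.7 ± 14.2 against 229 ± 34.3 (log2 -1.20). Kif13a, which moves endosomal cargo, read 367, 478 and 295 on the TRAP arrays and 675, 623 and 635 on the unbound arrays, a 1.73-fold difference (log2 -0.79, adjusted p = 0.013). Its dimmer 2 probe sets gave -0.22 and -0.46, the median over the 3 was -0.22, and the call was lost after centring on all probe sets (log2 -0.36, adjusted p = 0.13). Kif13b read 162, 137 and 139 on the TRAP arrays and 272, 190.1 and 224 on the unbound arrays, and its call (log2 -0.64 (SE 0.15), adjusted p = 0.014) was lost without TRAP replicate 2 or 3 (log2 -0.59 and -0.60, adjusted p = 0.052 each).

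The other 2 kinesin-3 genes were not called. Kif16b, an early endosome motor, read 662, 412 and 417 on the TRAP arrays and 368, 333 and 289.6 on the unbound arrays, with TRAP replicate 1 above the rest. It was called higher after either centring and after quantile normalisation. Its log2 difference was 0.56 (SE 0.22) with adjusted p = 0.07, and adjusted p = 0.029 with the replicate number as a block. The second probe set of Kif16b went the other way at -0.12. Kif1c read 301, 259 and 222 on the TRAP arrays and 361, 333 and 306 on the unbound arrays (log2 -0.36 (SE 0.13), adjusted p = 0.055). With the block Kif1c was called lower (adjusted p = 0.011), and also without TRAP replicate 1 (log2 -0.47, adjusted p = 0.024).

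**Figure D2:**
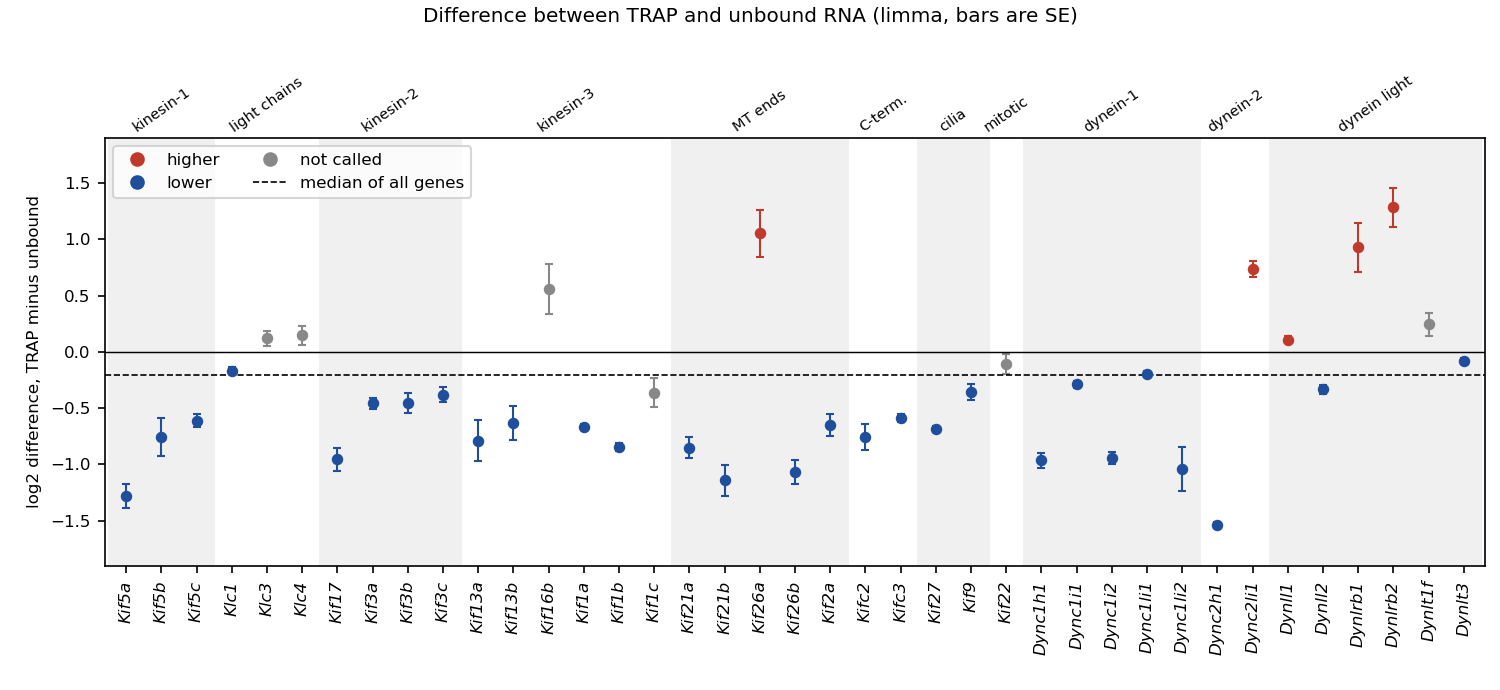
Log2 difference of TRAP minus unbound for the 39 tested motor genes, with bars for the SE from limma and a dashed line at the median of all 12070 genes (-0.21). Blue marks the 28 genes called lower, red the 5 called higher and grey the 6 not called; Dync2h1 is lowest at -1.54 and Dynlrb2 highest at 1.28.

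Kinesins that act on microtubule ends and growth were lower in 4 of 5 tested. Kif21b, a kinesin-4 motor of dendrites that also slows microtubule growth, read 200.3, 281 and 221 on the TRAP arrays and 488, 537 and 508 on the unbound arrays, a 2.21-fold lower level (log2 -1.14 (SE 0.14), adjusted p = 0.0012). Kif21a read 988, 988 and 988 on the TRAP arrays and 2041, 1731 and 1606 on the unbound arrays (log2 -0.85 (SE 0.094), adjusted p = 8.7e-04) on a probe set with 3 identical TRAP values, and its second probe set, at 989 ± 239 against 986 ± 227, showed a difference of only 0.0036. Kif2a, a depolymerase that trims axon branches, read 1785, 2186 and 2098 on the TRAP arrays and 2920.0, 3257 and 3334 on the unbound arrays, a 1.57-fold difference (adjusted p = 0.0028). Kif2a kept its sign but was not called after centring on all probe sets (log2 -0.22).

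The atypical kinesins Kif26a and Kif26b differed in opposite directions. Kif26a, which lacks motor activity and restrains growth factor signalling in enteric neurons, read 203, 203 and 125 on the TRAP arrays and 83.3, 83.3 and 83.1 on the unbound arrays. TRAP replicate 3 was the lowest of the TRAP arrays but still above the unbound values, and the difference was 2.08-fold (log2 1.05 (SE 0.21), adjusted p = 0.0074). Kif26b read 22.0, 22.0 and 27.8 on the TRAP arrays and 48.7, 48.7 and 52.7 on the unbound arrays, with TRAP values under the level limit (log2 -1.07 (SE 0.11), adjusted p = 6.5e-04). With values under 50 raised to 50, the Kif26b difference shrank to -0.025 (adjusted p = 0.48), while that of Kif26a stayed at 1.05.

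The minus-end directed C-terminal kinesins were lower. Kifc2, a neuronal form, read 2113, 2498 and 2266 on the TRAP arrays and 3343, 4165 and 4143 on the unbound arrays (log2 -0.76 (SE 0.11), adjusted p = 0.0028), and its second probe set gave -0.78. Kifc3, better known from epithelia, read 232, 246 and 248 on the TRAP arrays and 363, 357 and 370.5 on the unbound arrays (log2 -0.59 (SE 0.038), adjusted p = 1.3e-04). The groups overlapped in neither gene, though Kifc2 lost its call after centring on all probe sets (adjusted p = 0.052).

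Kinesins linked to cilia lay near or under the level limit. Kif27 read 31.0, 31.3 and 31.9 on the TRAP arrays and 50.5, 50.5 and 50.5 on the unbound arrays and Kif9 37.7, 40.9 and 45.5 on the TRAP arrays and 52.6, 52.8 and 52.6 on the unbound arrays. The 3 unbound values of Kif27 are identical, so their spread is no measure of error. Both genes were called lower (log2 -0.69 (SE 0.026) and -0.35 (SE 0.074), adjusted p = 2.2e-05 and 0.009). With values under 50 raised to 50 the differences were -0.015 and -0.076, and Kif9 turned to 0.078 after centring on all probe sets and to 0.033 after quantile normalisation. Kif6, Kif7 and Kif24 were not tested, and the highest of them, Kif7, had group means of 32.4 in TRAP and 43.9 in unbound RNA.

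Mitotic kinesins were close to background, with 11 of 12 genes untested. Their highest group means ran from 7.40 for Kif4 to 36.8 for Kifc1, and Kif11, the spindle motor, had 23.0 in TRAP and 11.2 in unbound RNA. The remaining gene, the chromokinesin Kif22, measured 1061 ± 41.9 against 1147 ± 124 (mean ± SD, n = 3) through a probe set of the _x_at type, which can cross-hybridise, and was not called. Its other 2 probe sets had TRAP means of 15.7 and 25.0. Of the proliferating cell markers 9 were on the array and 0 reached the level limit, with highest group means from 9.47 to 35.3.

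Cytoplasmic dynein-1 moves cargo back to the cell body, and its 5 large chains were lower. Dync1h1, the only motor-bearing heavy chain, read 1030.1, 1177 and 1027 on the TRAP arrays and 2094, 2034 and 2174 on the unbound arrays, a 1.95-fold lower level (log2 -0.96 (SE 0.067), adjusted p = 1.7e-04). Dync1i2, the intermediate chain of most cells, read 2731, 2731 and 2512 on the TRAP arrays and 5163, 4879 and 5259 on the unbound arrays, almost the same difference (log2 -0.94 (SE 0.052), adjusted p = 7.4e-05). Dync1i1, the neuron-enriched intermediate chain, read 3598, 3439 and 3439 on the TRAP arrays and 4246, 4214 and 4313 on the unbound arrays, a difference of -0.29 (SE 0.032) with adjusted p = 9.2e-04. The ratio of Dync1i1 to Dync1i2 within an array was 1.57-fold higher in TRAP RNA, without overlap (exact p = 0.1, adjusted 0.16), which does not pass the threshold.

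Light intermediate chains bind cargo adaptors, and both were lower. Dync1li2 read 836, 726 and 541 on the TRAP arrays and 1339, 1670.5 and 1275 on the unbound arrays (log2 -1.04 (SE 0.20), adjusted p = 0.0065), but its second probe set was not called (719 ± 61.8 against 869 ± 84.6, log2 -0.27, adjusted p = 0.06). Dync1li1 read 259.9, 252 and 252 on the TRAP arrays and 291, 291 and 291 on the unbound arrays, a difference of -0.19 (SE 0.027) (adjusted p = 0.0021). The ratio of Dync1li1 to Dync1li2 was 1.80-fold higher in TRAP RNA (exact p = 0.1, adjusted 0.16), a difference of 0.85 on the log2 scale that shrank to 0.46 with the median over the probe sets of each gene. Dync1i1 and Dync1li1 lay close to the median of all genes, and both were called higher after centring on all probe sets (log2 0.15 and 0.24, adjusted p = 0.027 and 0.0031), and Dync1li1 was above 0 but not called after centring on tested genes (0.017) and quantile normalisation (0.066).

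Dynein-2, the motor of retrograde transport in cilia, showed the widest split. Its heavy chain Dync2h1 read 46.2, 46.2 and 46.2 on the TRAP arrays and 133, 133 and 136 on the unbound arrays, the largest fall among the motors at 2.91-fold (log2 -1.54 (SE 0.025), adjusted p = 2.1e-06). The TRAP values are identical and under the level limit, and with values under 50 raised to 50 the difference was -1.43. Its light intermediate chain Dync2li1 read 1005, 850.3 and 886 on the TRAP arrays and 547, 547 and 547 on the unbound arrays, which was 1.67-fold higher (log2 0.74 (SE 0.069), adjusted p = 4.8e-04). The ratio of Dync2li1 to Dync2h1 within an array, a pair chosen after the values were seen, was 4.84-fold higher in TRAP RNA, without overlap (exact p = 0.1). Chosen this way, the pair gives no independent test. Each of the 2 genes rests on a single probe set.

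Dynein light chains, small dimers that also bind many proteins outside the motor, held 3 of the 5 higher genes. Dynlrb2, a roadblock chain linked to ciliated tissues, read 187, 187 and 279 on the TRAP arrays and 88.5, 86.3 and 88.5 on the unbound arrays, with TRAP replicate 3 highest. The difference was 2.44-fold (log2 1.28 (SE 0.17), adjusted p = 0.0018), the largest rise among the motors. Dynlrb1, the widespread roadblock chain, read 4895, 3973 and 6043 on the TRAP arrays and 3162, 2110.1 and 2554 on the unbound arrays. Its TRAP values varied from array to array but stayed above the unbound ones (log2 0.93 (SE 0.22), adjusted p = 0.014), and its probe set is of the _s_at type, which can match several transcripts. Within an array the ratio of Dynlrb1 to Dync1h1, chosen after the values were seen, was 3.71-fold higher in TRAP RNA (exact p = 0.1). That choice leaves no independent test.

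The LC8 light chains Dynll1 and Dynll2 gave bright signals. Dynll1 read 34957, 34957 and 35655 on the TRAP arrays and 33694, 31898 and 32260.0 on the unbound arrays, a small difference (log2 0.11 (SE 0.033), adjusted p = 0.032) that lost its call with the replicate number as a block (adjusted p = 0.07) and without any 1 array other than unbound replicate 1 (adjusted p from 0.055 to 0.087). Of its 4 probe sets 3 were called higher, up to 0.36, and the dimmest lower (-0.32). Dynll2 read 16692, 16692 and 16692 on the TRAP arrays and 21031, 20154 and 21914 on the unbound arrays (log2 -0.33 (SE 0.039), adjusted p = 0.0011), again with identical TRAP values, and its second probe set had the opposite sign (0.28, adjusted p = 0.081). Dynll2 turned to 0.10 after centring on all probe sets. The ratio of Dynll1 to Dynll2 was 1.36-fold higher in TRAP RNA without overlap (exact p = 0.1).

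Of the Tctex-type light chains, Dynlt3 and Dynlt1f have probe sets that name no other gene, and both differed little there. That of Dynlt1f is of the _x_at type, which can cross-hybridise. Brighter probe sets that name Dynlt1f together with its copies were higher in TRAP RNA (log2 1.53 and 1.62), and a dim one was lower (-1.60). Dynlt3 read 20042, 20262 and 20578 on the TRAP arrays and 21449, 21449 and 21601 on the unbound arrays (log2 -0.083 (SE 0.026), adjusted p = 0.036). That call was lost with the block (adjusted p = 0.08). It was also lost (adjusted p from 0.055 to 0.083) when any 1 of these was left out: TRAP replicate 1, TRAP replicate 2, unbound replicate 2 or unbound replicate 3. Its other 3 probe sets were not called, and Dynlt3 was called higher after centring on all probe sets (log2 0.35, adjusted p = 6.3e-04) and turned to 0.13 after centring on tested genes. Dynlt1f read 61.2, 61.2 and 61.2 on the TRAP arrays and 60.2, 48.6 and 47.1 on the unbound arrays and was not called (log2 0.25 (SE 0.10), adjusted p = 0.081), but it was called higher without unbound replicate 1 (log2 0.36, adjusted p = 0.001) and after each other scaling.

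**Figure D3:**
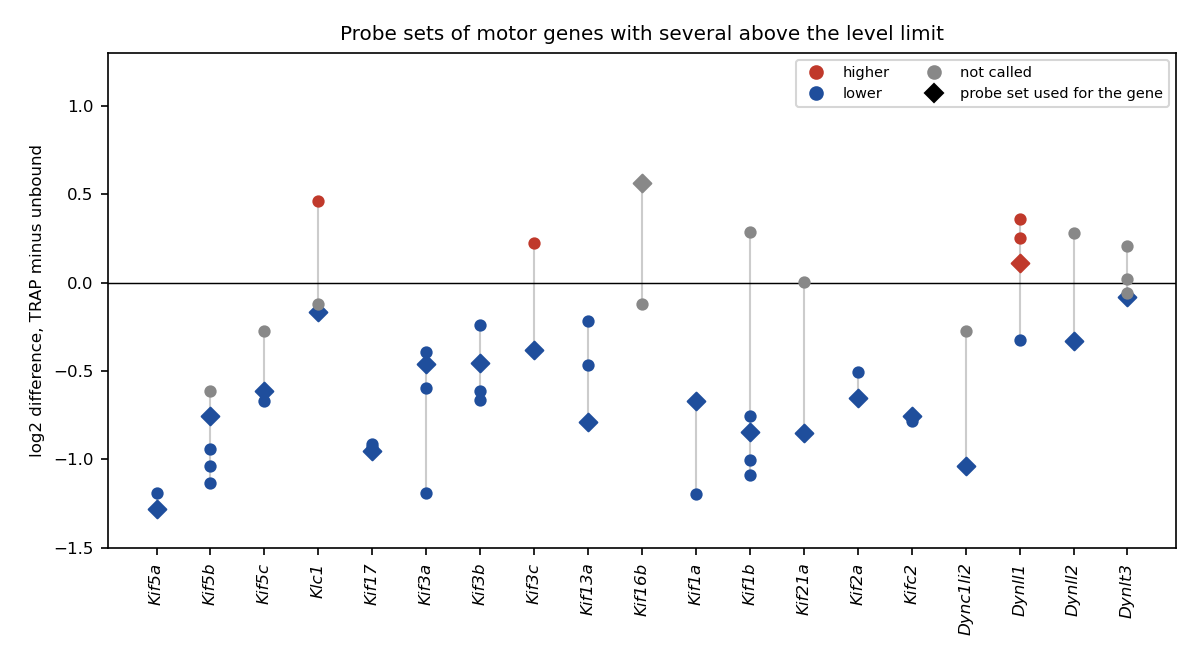
Log2 difference of TRAP minus unbound for each probe set above the level limit, for the 19 motor genes with several; diamonds mark the probe set that stands for the gene, and colours the call in the fit over probe sets. Kif3a, Kif3b, Kif17 and Kif5a lie wholly under 0, while Dynll1, Kif3c and Klc1 have probe sets called in both directions.

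Probe sets were also tested one by one. Of 76 motor probe sets above the limit 50 were called lower and 9 higher in a fit over 20291 probe sets, where 46.6% were lower and 21% higher. Of 19 genes with several probe sets, 8 had all of them called lower, 0 had all called higher, and 3 (Dynll1, Kif3c and Klc1) had opposite calls. The level that represents a gene held identical values on at least 2 arrays of 1 group in 24 of the 39 motors and in 50.6% of all genes. Spreads of 0 come from this repetition, and the SE and p-values that rest on them are no full measure of error. With every such probe set left out, 23 motors were tested, of which 15 were lower and 4 higher (65.2% and 17.4%, against 39.2% and 19.7% of 6975 genes).

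The partners of the motors came from lists chosen for this comparison. Dynactin subunits and dynein regulators (18 tested) numbered 9 lower and 4 higher, where 45.7% of all genes were lower and 23.3% higher. Their median log2 difference was -0.20, close to that of all genes. The endosomal dynein adaptors Hook3 (539 ± 78.8 against 1732 ± 63.0, log2 -1.69 (SE 0.11), adjusted p = 1.3e-04) and Hook1 (log2 -1.33 (SE 0.12), adjusted p = 3.7e-04) were lower, as was the adaptor Bicd2 (log2 -0.81 (SE 0.11), adjusted p = 0.0016). Dctn3, a small dynactin subunit, was higher at 9646 ± 0 against 5905 ± 140.5 (log2 0.71 (SE 0.030), adjusted p = 3.0e-05). The 3 TRAP values of Dctn3 are identical, so their spread is no measure of error. Kinesin adaptors and cargo linkers (23 tested) numbered 15 lower and 2 higher, and their median was -0.42. The scaffold Mapk8ip2 fell from 1659 ± 278 in unbound RNA to 529 ± 76.2 in TRAP RNA (log2 -1.64 (SE 0.16), adjusted p = 5.8e-04), with Fez1 at -1.35 and Apba1 at -1.04. Trak1 and Trak2, which tie kinesin to mitochondria, were lower at -0.65 and -0.63, and Kifap3, the non-motor subunit of the Kif3a and Kif3b motor, at -0.19. Those 3 genes, Dctn3, Tuba1a, Stmn3 and Mapt were picked after their values were seen.

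Tubulins form the tracks on which the motors run. Of their 11 tested genes, 4 were higher and 3 lower (23.3% and 45.7% of all genes were), and the median was 0.17. Tubb2b was 3.02-fold lower (log2 -1.59 (SE 0.20), adjusted p = 0.0015) and Tubb6 2.78-fold higher (log2 1.47 (SE 0.049), adjusted p = 1.4e-05), followed by Tubg1 (0.54), while Tuba1a, an abundant alpha tubulin, was lower at -0.12. The 3 unbound values of Tubb6 are identical, so their spread is no measure of error. Microtubule-associated proteins (26 tested) had 16 lower genes and 1 higher, Stmn3, around a median of -0.34. Map2, which lines dendritic microtubules and whose mRNA enters dendrites, was 7.63-fold lower, at 1738 ± 121 against 13233 ± 41.8 (adjusted p = 2.9e-06), beyond any motor gene. Dcx (log2 -2.05 (SE 0.31)) and Map1a (log2 -1.26 (SE 0.12)) followed, whereas the axonal protein gene Mapt was not called (9936 ± 248 against 9883 ± 129). Whether motors differ from these lists was not tested.

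Cell type markers give the setting of these values. Beside their counts, 23.3% of all genes tested were higher and 45.7% lower. S100a10, the driver gene, measured 14128 ± 1095 against 2430.1 ± 451 (SD, n = 3) and was 5.86-fold higher in TRAP RNA (adjusted p = 8.3e-05). Pan-neuronal markers had 2 of 10 higher and 5 lower, with summed intensities of 122019 to 124393 on TRAP and 133559 to 143242 on unbound arrays. Pyramidal neuron markers had 3 of 9 higher and 3 lower, with sums of 29142 to 33107 against 28489.9 to 31418, ranges that overlap. Interneuron markers were lower in 8 of 10, oligodendrocyte markers in 8 of 9 and microglial markers in 9 of 9, and astrocyte markers had 5 of 10 lower and 3 higher. Meningeal fibroblast markers were higher in 9 of 9 tested, with sums of 22477 to 26478 against 1114 to 1389. Of these 9, 4 had unbound means under 50 and passed the level limit only through TRAP RNA, where they are higher. In the same way 4 of the 9 microglial markers and 1 astrocyte marker passed only through unbound RNA, where they are higher. The directions of such genes were in part set by the filter. Endothelial markers had 2 of 4 tested higher and 2 lower, with 1 of each passing the limit only through the group where it is higher. The part of these cell types in the motor differences was not tested.

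Cilium-related motors went both ways, with Dynlrb2 and Dync2li1 higher and Dync2h1, Kif27, Kif9, Kif3a and Kif3b lower. Ependymal and choroid plexus markers were higher in 4 of 6 tested (23.3% of all genes were). Of the 4, Kl and Kcnj13 had unbound means under 50 (18.7 and 49.97). Both passed the level limit only through TRAP RNA, where they are higher, so the filter in part set their direction. The sums of the 6 markers were 1306 to 1652 on TRAP arrays and 466 to 3273 on unbound arrays, where Ttr alone varied widely. The other 6 were under the level limit in both groups, with TRAP and unbound means of 14.8 and 14.8 for Foxj1, the regulator of motile cilia, 5.22 and 6.31 for Dnah5, 43.3 and 35.1 for Dnah11, 37.5 and 10.98 for Dnali1, 25.1 and 35.7 for Tekt1, and 4.09 and 3.67 for Tmem212. Their part in the motor differences was not tested.

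**Figure D4:**
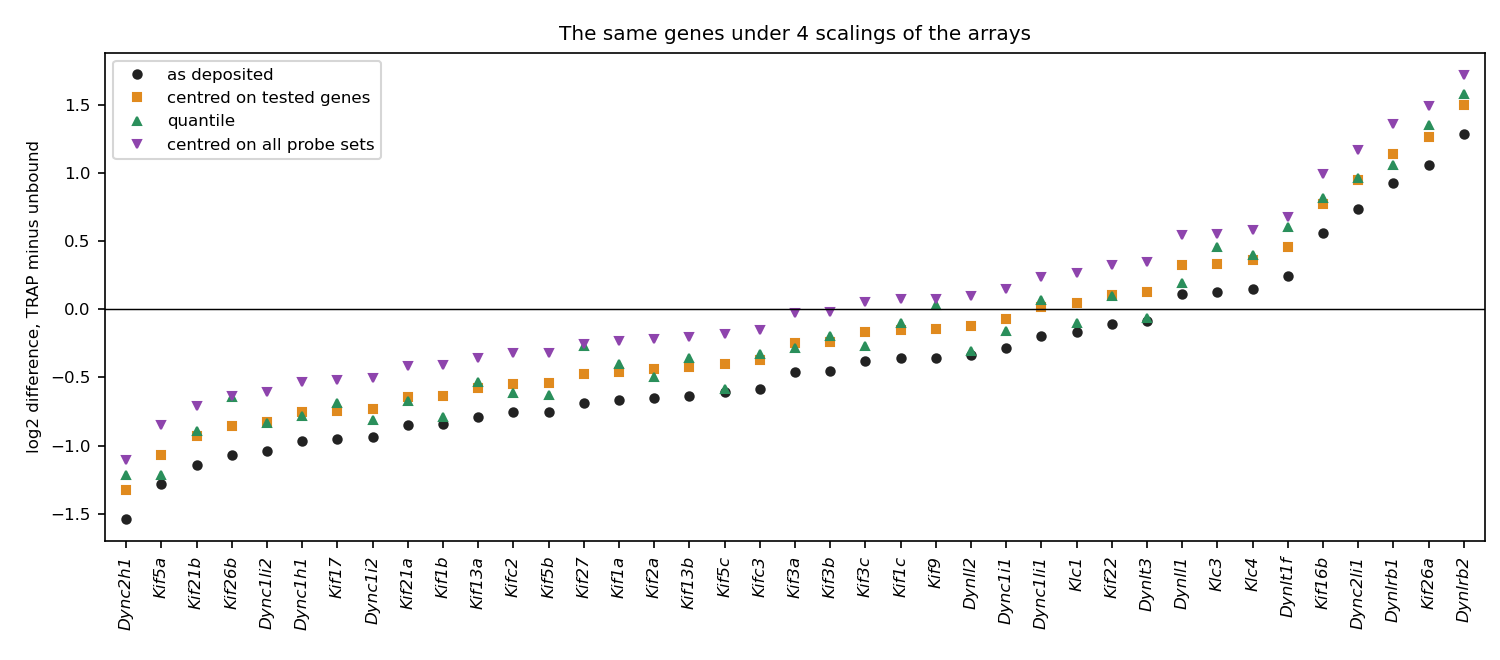
Log2 difference of TRAP minus unbound for the 39 tested motor genes in order of size, as deposited, after centring each array on the median of the tested genes or of all probe sets, and after quantile normalisation. Each centring shifts all genes by the same amount and cannot change their order, which quantile normalisation largely keeps. The 9 genes from Kif3c to Dynlt3 are above 0 under at least 1 scaling. Those at both ends, such as Dync2h1 (-1.54 as deposited) and Dynlrb2 (1.28), keep their sign.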

How the data were processed

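Affymetrix arrays were hybridised with RNA amplified from 15 ng in 2 cycles, per the labels' protocols; this enriches transcript ends, so probe sets of a gene can differ. The authors deposited linear intensities, and the submitters' processing notes name GCRMA; the version, and whether the groups were processed in 1 run, are not given in the sources used here. Each sample has its own column and 0 columns were left unused.

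Probe sets with 1 gene symbol (34945 of 45101) and a mean of at least 50 in at least 1 group, a limit from the series text, were kept, and the one with the highest mean over the 6 arrays stood for the gene. R 4.3.3 with limma 3.58.1 fitted log2 intensity on group alone (moderated by eBayes, two-sided). Adjusted p-values are Benjamini-Hochberg values of that fit over 12070 genes, called under 0.05. The fit was tested on simulated data. With 6 arrays a single exact permutation test cannot go under 0.1.

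Replicate numbers come from the labels. Same-numbered TRAP and unbound samples deviated together from their group means (correlations across genes of 0.37 to 0.50). All other pairs were under 0, in part because deviations within a group sum to 0. A fit with the number as a block is therefore given where it changes a call. Alternatives covered the level filter, scaling, low values, choice of probe set, repeated values, a 2-fold test and each array left out.

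The members, role groups and lists were chosen with earlier results of these data known. Values on each array are given for the main motors and the 4 most changed called genes of each role group, and in practice for nearly every motor tested; of partner lists the 3 called genes with the largest differences are named, and marker lists, for which that rule also names the 2 most changed genes, are given by counts. Klc2 was not analysed here, and genes have no coordinates because the array names no genome build; promoter windows are those of RefSeq.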

Additional observations from a re-analysis of the deposited data

How the results depend on the processing

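Depth does not apply to arrays; signal near background limits Kif27, Kif9, Kif26b and Dync2h1, whose TRAP means lie under 50. Leaving out each array in turn gave 4 to 6 motors higher and 26 to 28 lower, and the replicate block, 5 and 28. The block changed no motor gene's call other than those of Dynll1, Dynlt3, Kif1c and Kif16b. The count of higher motors was 10 with no filter on low values (17.5% of 57 motors, 26.4% of 18193 genes), 14 after centring on all probe sets, 9 after centring on tested genes and after quantile normalisation, and 0 in the test against a 2-fold change, where 4.53% of all genes were higher. The count of lower motors was 37 with no filter (64.9%, against 45.9% of all genes), 23 with 50 required in both groups, 23 with the median over probe sets, 13 after centring on all probe sets, 15 when probe sets with repeated values were left out (23 motors tested) and 1, Dync2h1, in the test against a 2-fold change (6.56% of all genes). Motor probe sets numbered 23 higher and 25 lower of 76 after centring on all probe sets, where 44.4% and 23.8% of all probe sets were.

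Partner lists moved with scaling too. After centring on all probe sets the higher and lower counts were 11 and 3 for dynactin and dynein regulators, 8 and 8 for kinesin adaptors, 10 and 1 for tubulins and 9 and 8 for microtubule-associated proteins (47.3% and 22.3% of all genes). After quantile normalisation they were 5 and 4, 3 and 11, 7 and 2, and 3 and 14, in the same order (34.1% and 33.0% of all genes).

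Signs turned for 11 genes. Centring on all probe sets gave 0.078 for Kif9, 0.15 for Dync1i1, 0.24 for Dync1li1, 0.10 for Dynll2, 0.35 for Dynlt3, 0.27 for Klc1, 0.053 for Kif3c, 0.071 for Kif1c and 0.32 for Kif22. Quantile normalisation gave 0.033 for Kif9, 0.066 for Dync1li1 and 0.10 for Kif22. Centring on tested genes gave 0.017 for Dync1li1, 0.13 for Dynlt3, 0.044 for Klc1 and 0.10 for Kif22. Each of these settings moves the median of all genes upward. Without probe sets of the _x_at and _s_at types, Dynll2 was 0.28 and Kif16b -0.12. Without repeated values Klc1 was 0.46 and Kif21a 0.0036, and the median over probe sets gave 0.46 for Klc1, while Dynll2, Dynlt3, Kif3c and Kif21a lost their calls under it; there other probe sets enter the value.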

Other observations

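Probe sets that match several Tctex-type light chain genes were not counted as motors. One that matches Dynlt1a, Dynlt1b, Dynlt1c and Dynlt1f measured 2515 ± 9.12 in TRAP and 876 ± 130 in unbound RNA (mean ± SD, n = 3), a log2 difference of 1.53. A second with the same 4 symbols measured 923 ± 49.8 against 300.4 ± 28.1, a log2 difference of 1.62. On both, each TRAP array was above each unbound array, and both rises were larger than that of Dynlrb2 (1.28). Another, which matches Dynlt1a, Dynlt1c and Dynlt1f, was under the level limit in both groups at 10.9 and 33.2, with TRAP the lower, so the near-identical copies of this gene cannot be told apart here. No test was run on these 3 probe sets.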
